A study of Mus musculus with 2 samples.

Results

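The clustered protocadherin genes are a family of cadherin-like cell adhesion genes that lie side by side on mouse chromosome 18 in the alpha, beta and gamma clusters. They were taken from the GENCODE M21 annotation of mm10 as the protein-coding genes on that chromosome whose symbol begins with Pcdha, Pcdhb or Pcdhg followed by a, b, c or a digit. This gave 57 of 21938 protein-coding genes, 14 in the alpha, 22 in the beta and 21 in the gamma cluster. Open chromatin was measured by DNase-seq, which maps the places where the enzyme DNase I cuts chromatin readily, in whole lung of B6NCrl mice on postnatal day 0. The series held 1 group of 2 biological replicates with no genetic change or treatment, each a biosample of its own with one donor entry in common. The labels do not say whether the tissue came from separate animals or pools, and they list a pair of sequencing instrument models for replicate 1 and none for replicate 2.

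In the alpha and gamma clusters each gene begins with its own promoter and a large variable exon, which encodes the extracellular, transmembrane and first cytoplasmic part of the protein, and is spliced to constant exons that all genes of the cluster share. Beta genes have no constant exons. The family is best known from the brain, where single neurons use different combinations of these promoters and the proteins bind only to their own kind on another cell, which lets a neuron tell its own branches from those of others. Promoters of alternate genes are chosen at random in many neurons, whereas those of the C-type genes Pcdhac1, Pcdhac2, Pcdhgc3, Pcdhgc4 and Pcdhgc5 at the cluster ends are used more regularly. Most of the alternate promoters carry a conserved sequence element at which the insulator protein CTCF can bind, and enhancers further along the clusters are brought to them by CTCF and cohesin.

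The files listed 276480 peaks of replicate 1 and 188498 of replicate 2 on the assembled chromosomes, each 150 bp wide and with a score of the authors that reached 150 and 148. The meaning of this score and the sequencing depth are not given in the sources used here. Scores are therefore set against those of other promoters in the same list. A shared site is a place where peaks of both replicates overlapped by at least 1 bp, and a gene had a shared promoter site if any part of one lay within 500 bp of its 5′ end (TSS). Of 6 lung marker genes, named after their values were seen, 5 had a shared promoter site at the 5′ end. Sftpb, a surfactant protein gene, scored 105 and 81, for example. Nkx2-1, the other marker, had one at another annotated TSS. Of all protein-coding genes 63.0% had such a site at the 5′ end, and 67.2% of those with similar numbers of CpG dinucleotides there. The markers are therefore a description and not a check of the lung label. Whole lung holds many cell types, and strong opening in few cells cannot be told apart from weak opening in many. With a single group there was no contrast to test, and differences from other genes are given as a description of both maps.

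Of the 57 clustered protocadherin genes, 27 had a shared promoter site (47.4%), against 63.0% of all protein-coding genes. The clusters differed. Of the gamma genes 16 of 21 had such a site, of the alpha genes 5 of 14 and of the beta genes 6 of 22. Another 14 members had a promoter peak in replicate 1 only, 1 in replicate 2 only, and 15 in neither. Over all protein-coding genes, 4.39% had a promoter peak in replicate 1 only, 0.734% in replicate 2 only and 31.8% in neither. In replicate 1 every one of the 21 gamma genes had a promoter peak, and 13 of 22 beta genes and 7 of 14 alpha genes did. In replicate 2 the counts were 16, 7 and 5. Together these were 41 of the 57 members in replicate 1 and 28 in replicate 2. Over all protein-coding genes 67.5% had a promoter peak in replicate 1 and 63.8% in replicate 2.

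Most of the open promoters had low scores. Over the members with a peak, the score of the strongest promoter peak had a median of 39 in replicate 1 (17 to 141, 41 genes) and 35 in replicate 2 (16 to 127, 28 genes). The 27 members with a shared site had medians of 42 and 36. Over all protein-coding genes with a shared promoter site the medians were 121 and 101. Of the 27 members with a shared site, 21 lay below the 10th percentile of these genes in replicate 1 (a score of 62) and 17 below it in replicate 2 (a score of 44). Only Pcdhgc3 lay above the median in either replicate. The plot of scores by gene shows this for each member.

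**Figure D1:**
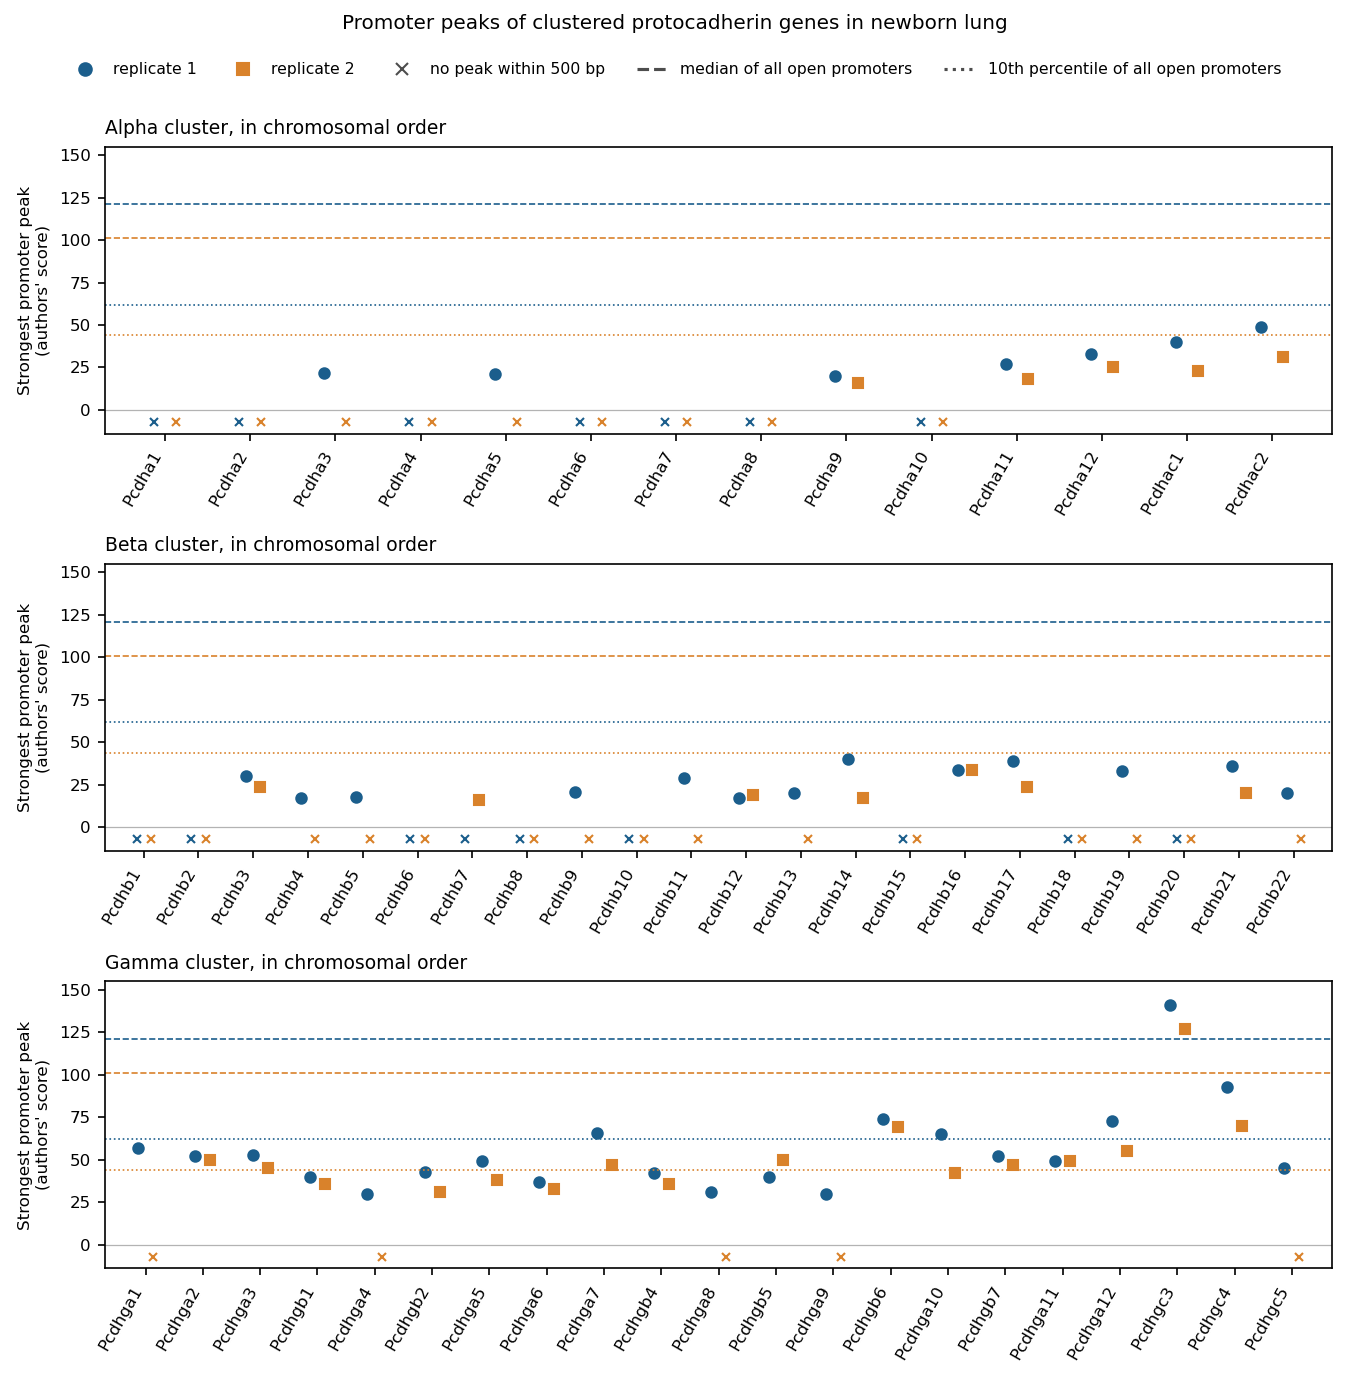
Score of the strongest peak within 500 bp of the TSS (y axis, the authors' score) for each gene in chromosomal order (x axis), with replicate 1 as circles, replicate 2 as squares and crosses for no peak; lines give the median (dashed) and 10th percentile (dotted) of all protein-coding genes with a shared promoter site. Pcdhgc3, at 141 and 127, is the only member above the dashed lines, and 15 members have crosses for both replicates.

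Pcdhgc3, the first of the gamma C-type genes, had the highest promoter score of the family in both replicates. Its strongest peak scored 141 in replicate 1 and 127 in replicate 2, which placed it at percentiles 91.0 and 91.1 among all open promoters of protein-coding genes. The shared site spanned positions 37806236 to 37806405, at the start of the variable exon. The hotspot around it, a broader region of raised cutting called by the authors, carried the highest value the files give, a −log10 q of 100, in both replicates. It was 1506 bp wide in replicate 1 and 800 bp in replicate 2, where a separate one of 81 bp lay in the same window.

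Pcdhgc4, the next C-type gene, whose protein is needed for the survival of many neurons, was the runner-up. Its promoter window held 3 shared sites, with strongest scores of 93 in replicate 1 and 70 in replicate 2, at percentiles 24.1 and 24.2 of open promoters. Pcdhgc5, the last gene of the family, scored 45 in replicate 1 and had no promoter peak in replicate 2. The 3 gamma C-type variable exons lie within 16.3 kb, and all 3 replicate 1 scores were above the median of the members with a peak. In the alpha cluster both C-type genes had a shared site. Pcdhac1 scored 40 and 23. Pcdhac2 scored 49 and 31, although its replicate 2 peak of 31 lay apart from the shared site, which scored 49 and 22 in positions 37143556 to 37143785. Of the 5 C-type genes 4 had a shared promoter site (80%), as had 23 of the other 52 members (44.2%). Among all protein-coding genes with similar CpG numbers the shares were 82% and 55.9%, so that the C-type share was near that of such genes.

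Among the gamma A and gamma B genes, the alternate genes of that cluster, 14 of 18 had a shared promoter site. Their scores ran from 30 to 74 in replicate 1 (median 49, 18 genes) and from 31 to 69 in replicate 2 (median 46, 14 genes). Pcdhgb6 was the strongest, with 74 and 69. It was followed by Pcdhga12 with 73 and 55. The other named genes of the array lay below these.

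Among them Pcdhga7 scored 66 and 47, and Pcdhga10 scored 65 and 42. Pcdhga2 scored 52 and 50, Pcdhgb7 52 and 47, and Pcdhga3 53 and 45. Pcdhga11 had 49 in both replicates. The order depended on the replicate, as Pcdhgb5 scored 40 in replicate 1 but 50 in replicate 2, and was the only shared gamma promoter with the higher score in replicate 2. Pcdhga5 scored 49 and 38, Pcdhgb4 42 and 36, and Pcdhgb1 40 and 36.

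All 6 gamma B genes had a shared promoter site, and 8 of 12 gamma A genes (66.7%) did. Among all protein-coding genes with similar CpG numbers the shares were 68.6% for gamma B and 72.1% for gamma A. The groups are small, and their difference was not tested. The other 4 gamma A genes had a peak in replicate 1 only. These were Pcdhga8 (31), Pcdhga4 (30), Pcdhga9 (30) and Pcdhga1. Pcdhga1, the first gene of the gamma cluster, differed from the rest in that its replicate 1 peak was not weak for the family. It scored 57, with a hotspot value of 100, and the nearest replicate 2 peak was centred 5902.5 bp upstream of its TSS, at the gene 3222401L13Rik. Pcdhgb8, which the annotation gives as a polymorphic pseudogene and which is therefore not a member, lies among these genes and had a promoter site with scores of 66 and 54. It was named after its values were seen.

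The alternate alpha genes had few promoter peaks, and 3 of 12 had a shared site. These lay on the 3′ side of the array, Pcdha9 (20 and 16), Pcdha11 (27 and 18) and Pcdha12 (33 and 25), named after their values were seen. Between them lies a gene that RefSeq calls Pcdha10 and GENCODE also names Pcdha11, and it had no promoter peak. Pcdha3 (22) and Pcdha5 (21) had a peak in replicate 1 only, and 7 alternate alpha genes, Pcdha1 and Pcdha2 among them, had none in either replicate. Parts of the promoter windows of the alternate alpha genes are repeated in the genome. Where the other copies lie was not examined. A median of 79.5% of their 36-base words occurred only once on the assembled chromosomes (72.6 to 92.5%), against 100% for both alpha C-type genes and a median of 100% for beta genes. Gamma B genes, all 6 with a shared site, had a median of 83.6%. Alternate alpha genes with a shared site had a median of 78.6%, and those without 79.7%. The handling of reads with several matches is not given in the sources used here. What part this has in the low count of alpha peaks was not tested.

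Beta genes were open about as seldom as the alternate alpha genes. Of 22, 6 had a shared promoter site, with replicate 1 scores of at most 40 over the 13 genes with a peak (median 29) and replicate 2 scores of at most 34 over 7 genes (median 20). Pcdhb16 scored 34 in both replicates, Pcdhb17 scored 39 and 24, and Pcdhb14 scored 40 and 17. The other 3 were Pcdhb21 (36 and 20), Pcdhb3 (30 and 24) and Pcdhb12 (17 and 19), and all 6 were named after their values were seen. Another 7 had a peak in replicate 1 only, among them Pcdhb19 (33), Pcdhb11 (29) and Pcdhb9 (21). The peak of Pcdhb22 (20), another of these, was centred 459.5 bp downstream of the GENCODE TSS, but RefSeq places the 5′ end of this gene 482 bp downstream of the GENCODE one. Pcdhb7 was the only member with a peak in replicate 2 alone (16), and 8 beta genes had none, Pcdhb1 and Pcdhb2 among them. Beta genes with and without a peak were interspersed along the array.

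The replicates ranked the members with a shared site much alike. Members with a peak in 1 replicate only could not enter this ranking. Over the 27 members with a shared site the strongest scores correlated with a rho of 0.848 (Spearman) and an r of 0.941 (Pearson). Without Pcdhgc3 and Pcdhgc4 the rho was 0.809 over 25 genes. These coefficients are across genes of 2 libraries, and related genes are not independent. Replicate 1 had the higher score at 23 of the 27, by a median of 8 over all of them, and the scores were equal at 2. The 14 members with a peak in replicate 1 only had scores of 17 to 57 there (median 25.5). Of the 35 members with a replicate 1 score in that range, 40% had no replicate 2 peak, and of the 1963 protein-coding genes in it 42.8% had none. The range was set by these 14 members, so that all of them fall in it, and both shares are a description.

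Hotspots gave the same count as peaks. A promoter hotspot was found in both replicates for 27 of 57 members, against 63.8% of protein-coding genes, and in 41 members for replicate 1 and 28 for replicate 2. The value of 100, the ceiling of the files, was reached at 19 members in replicate 1, of which 16 were gamma genes, and at 11 in replicate 2, of which 9 were. The others included Pcdha9 and Pcdhb12, which reached 100 in both replicates and were the only members outside the gamma cluster to do so in replicate 2, with hotspots of 218 to 221 bp and peaks that scored at most 20. Of the promoters of all 21938 protein-coding genes, 13019 reached the ceiling in replicate 1 and 11875 in replicate 2, larger shares than among the members. Among all promoters with a hotspot at the ceiling, the median peak score was 123 in replicate 1 and 106 in replicate 2. Only 0.138% and 0.177% of them had a score under 21, a bound chosen after the values of Pcdha9 and Pcdhb12 were seen. For these promoters 86.7% (Pcdha9) and 85.4% (Pcdhb12) of 36-base words were unique, and the part of this in the mismatch was not tested.

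Promoters rich in CpG dinucleotides are open in most tissues, so that the members were set beside genes with similar CpG numbers. Members had a median of 30 CpG within 500 bp of the TSS (6 to 67), against 41 for all protein-coding genes, and a median GC content of 44.9% against 54.7%. Taking for each member the open share of all genes in its CpG decile, the mean was 58.2% for the family, above the observed 47.4%. The difference lay mostly in the alternate alpha genes, with 25% open where genes of their CpG deciles had 73.8%. Beta genes had 27.3% against 33.9%, and gamma genes 76.2% against 71.7%. Of the 27 members in the decile with 26 to 40 CpG, 13 had a shared site, against 73.8% of all genes in it. All 6 members with more CpG than this had a shared site, and of all genes in their deciles 89.3%, 92.7% and 95.7% did. The plot of open share against CpG number places the groups on this scale.

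**Figure D2:**
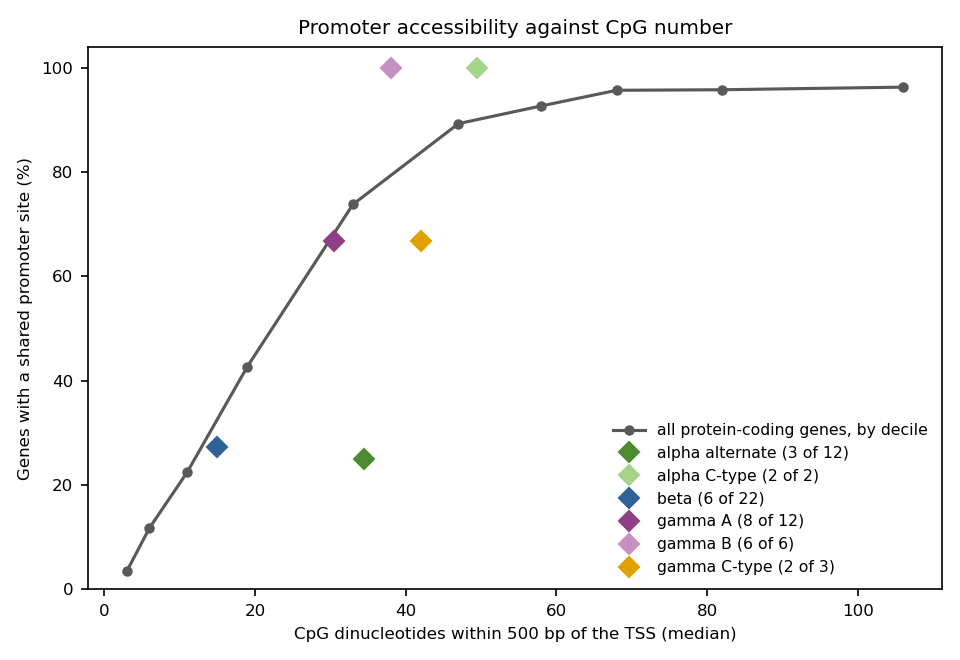
Share of genes with a shared promoter site (y axis, percent) against the median number of CpG dinucleotides within 500 bp of the TSS (x axis), for all protein-coding genes in 10 deciles (grey line) and for 6 groups of clustered protocadherin genes (diamonds). The alternate alpha genes (25%, median 34.5 CpG) lie far below the line, and beta (27.3%, 15 CpG) and gamma A genes (66.7%, 30.5 CpG) near it.

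Where a promoter peak was present, it usually sat at the TSS. The strongest peak of replicate 1 was centred within 100 bp of the TSS in 33 of 41 members, with a median position of -23.5 bp (negative is upstream), and that of replicate 2 in 23 of 28, with a median of -26 bp. For the strongest shared sites of members the median was -29.5 bp, which was also the median over all open protein-coding promoters, and 22 of 27 lay within 100 bp of the TSS, against 63.1% of all open promoters. Exceptions downstream of the TSS were Pcdhga12 (290.5 bp in replicate 1 and 310.5 bp in replicate 2), Pcdhgc4 (251.5 and 271.5 bp) and Pcdhac2 (207.5 and 367.5 bp), and RefSeq places the 5′ end of Pcdhac2 175 bp downstream of the GENCODE one used here. A few alpha and beta peaks lay further upstream or downstream. The plot of peak positions shows the narrow spread of gamma B genes, where all 6 lay within 100 bp in both replicates.

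**Figure D3:**
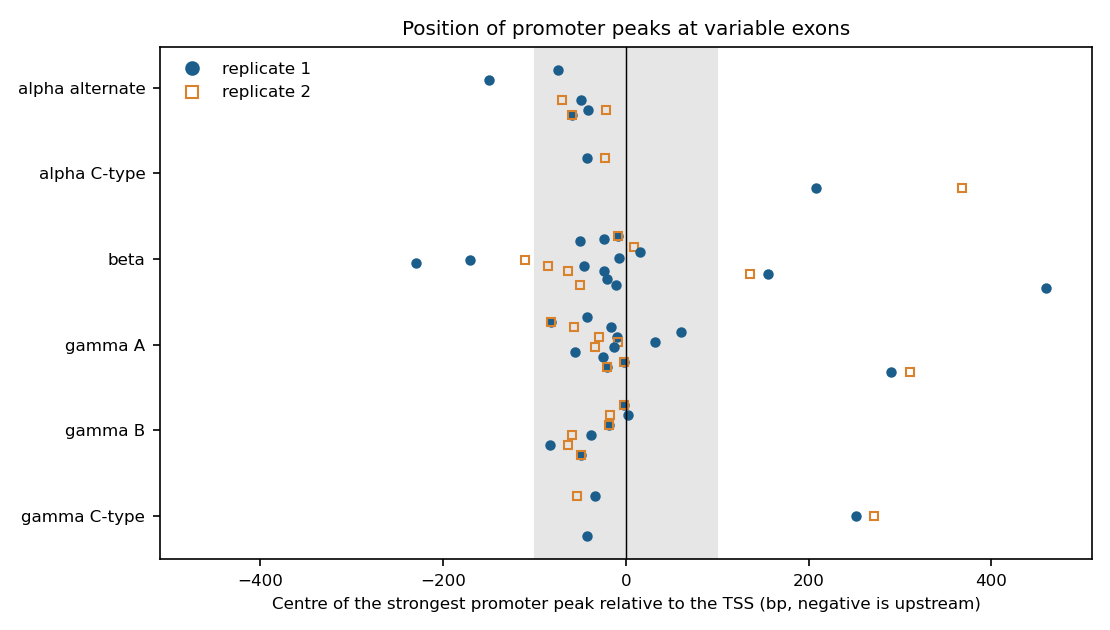
Centre of the strongest promoter peak relative to the TSS (x axis, bp) for each member with a peak, by group (y axis), with replicate 1 as filled circles and replicate 2 as open squares; the grey band marks 100 bp on each side. Of the replicate 1 peaks 33 of 41 lie in the band, 19 of 21 for gamma genes.

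The window of Pcdha4, Pcdhga8 and Pcdhga11 also holds the TSS of another annotated gene, so that a peak there cannot be given to one of them alone.

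The letters GGCGCT, a spelling used here for the core of the conserved element, were searched on both strands within 500 bp of each TSS. A promoter without these exact letters may still hold the element, and one with them may lack it. They were found at 20 of 22 beta genes, 12 of 21 gamma genes and 3 of 14 alpha genes, against 41.4% of all protein-coding promoters. In the alpha cluster these were 1 of 12 alternate genes and both C-type genes. All 5 C-type genes of the family had a match, and 9 of 18 gamma A and B genes did. Among the C-type genes the match nearest to the TSS lay upstream at Pcdhac1 (-60.5 bp), Pcdhgc3 (-81.5 bp) and Pcdhgc5 (-41.5 bp). At Pcdhac2 (151.5 bp) and Pcdhgc4 (335.5 bp) it lay downstream. These counts of letters therefore do not tell which promoters carry the element. In beta genes the match nearest to the TSS lay in the 150 bp before it at 18 of the 20, with a median position of -47.5 bp. It was present at 6 of 6 beta genes with a shared site and at 14 of 16 without. Of the 12 beta genes with a match and a replicate 1 peak, 11 had a match within 75 bp of the peak centre. Among gamma genes this held for 6 of 12, and over all members for 19 of 26. At Pcdhgb6 and Pcdhga11, for example, the nearest match lay 258 and 249 bp from the peak centre. The genes are copies of each other, so that these matches are not independent.

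The core of the CTCF consensus, searched on both strands in the same windows, was found at 1 member, Pcdhac2, and at 7.09% of all promoters. A longer form of it, which ends in GGCGCT so that each match also counts above, was found at 0 members and at 0.296% of promoters. The TATA box letters TATAAA were found at 30 of 57 members, 14 of them beta genes, and at 32.3% of promoters. A match is a string of letters and not a bound site, and the search covered these windows and spellings only.

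Along the chromosome, from the start of Pcdha1 at 36930184 to the end of the gamma genes at 37841873, the clusters span 911.69 kb and held 56 shared sites, of which 30 lay at member promoters. That is 6.14 per 100 kb, against 5.91 for the genome. Of 2916 stretches of the same length laid end to end over the genome, 55.2% had fewer sites, with a median of 47 (quartiles 15 and 86). The sites were spread unevenly. The alternate alpha exons had 1.88 per 100 kb, the beta genes 2.31, the gamma A and B exons 16.8, the gamma C-type exons 43.0 and the gamma constant exons 35.5. Hotspots of replicate 1 covered 0.648% of the alternate alpha stretch and 28.3% of the gamma C-type stretch, against 3.14% of the genome, and those of replicate 2 covered 0.278% and 15.2%, against 2.02%.

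**Figure D4:**
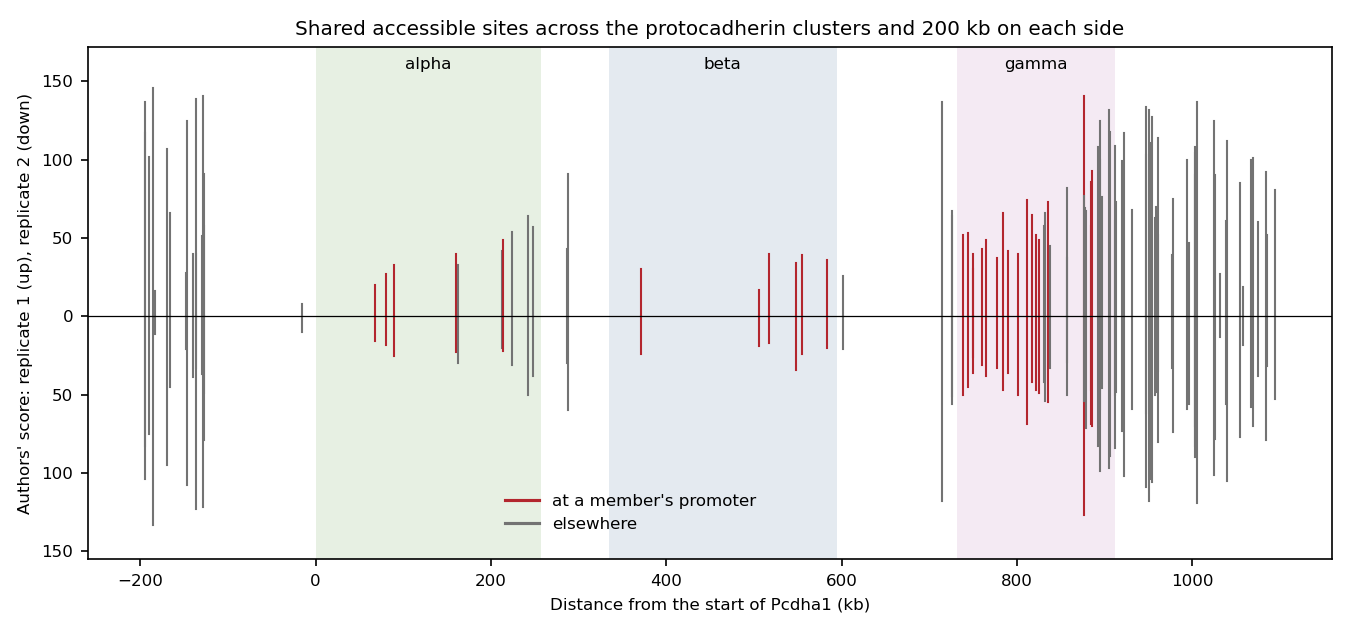
Shared sites from 200 kb before Pcdha1 to 200 kb past the gamma genes, by distance from the start of Pcdha1 (x axis, kb), with the authors' score of replicate 1 drawn upward and of replicate 2 downward (y axis); red lines are sites at member promoters, grey lines all others, and shading marks the clusters. Sites are sparse and low over alpha and beta, and dense and tall from the end of gamma into the downstream flank.

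In the alternate alpha and beta arrays, shared sites lay at member promoters. All 3 sites of the alternate alpha exons and all 6 of the beta genes did so. In the gamma A and B array 15 of 18 did, and of the other 3, 2 lay at the start of Pcdhgb8 and 1 in the variable exon of Pcdhga12. The site in that exon lay within 500 bp of an annotated start of Gm26672. Among the longest stretches without a shared site were 134.5 kb between Pcdhb3 and Pcdhb12 and 112.5 kb in the interval between beta and gamma.

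Apart from the promoter of Taf7, a gene between beta and gamma, the 5 strongest sites outside member promoters lay in the 3′ part of the gamma cluster. The stretch of 19.7 kb with the gamma constant exons, which encode the cytoplasmic end shared by all gamma proteins, held 7 shared sites. Of these, 5 lay outside annotated exons of the gamma genes. The strongest of them spanned positions 37835616 to 37835785 and scored 132 and 97. The others among the 10 strongest scored 125 and 99 (37825376 to 37825525), 118 and 89 (37836656 to 37836805) and 108 and 83 (37822576 to 37822725). Another, with 100 and 59, overlapped a constant exon at 37824976 to 37825125, within 500 bp of an annotated start of Gm38182. Each of these 5 had a higher replicate 1 score than every member promoter except that of Pcdhgc3. In replicate 2 this held for the first 4, and the one that scored 59 lay below Pcdhgc4 (70) and Pcdhgb6 (69).

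Inside the variable exon of Pcdhgc3 were 3 further shared sites, and those at 37808836 to 37809025 (67 and 71) and 37806876 to 37807145 (77 and 54) were among the 10 strongest. The site at 37806876 lay within 500 bp of another annotated TSS of Pcdhgc3. The remaining site, at 37807956 to 37808125, lay within 500 bp of an annotated start of BC037039. In the interval before the C-type exons a site at 37787496 to 37787645 scored 82 and 50.

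The constant part of the alpha cluster held 3 weaker shared sites. Those with scores of 64 and 50 and of 57 and 38 lay at the starts of the annotated genes Gm38097 and Gm10544, and the other, with 54 and 31, lay at no annotated start. Each was above all alpha promoters in replicate 1, but in replicate 2 the last equalled Pcdhac2 (31). Between the alpha and beta clusters, a stretch of 76.8 kb, 2 shared sites were found. The stronger, at positions 37218296 to 37218465, lay 30719.5 bp past the end of the alpha genes and scored 91 and 60. The other, less than 1 kb before it at 37217356 to 37217525, scored 43 and 30. No peak of either replicate within 500 bp of an alpha TSS scored as high as the stronger of these.

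Between beta and gamma were 4 shared sites. The strongest (137 and 118, at 37644176 to 37644325) lay at the promoter of Taf7, a gene for a subunit of the general transcription factor TFIID, which stands between the clusters. A pair of sites scored 64 and 56 and 67 and 51 at 37655536 to 37655705 and 37655816 to 37655965, at the start of the gene 3222401L13Rik. The remaining site scored 26 and 21 at 37531576 to 37531725. Slc25a2, a mitochondrial carrier gene in the same interval, had no promoter peak.

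Other genes on the same stretch of chromosome had higher promoter scores. Of the 18 other protein-coding genes with a TSS in the clusters or the 200 kb beside them, 13 had a shared promoter site (72.2%), with median scores of 125 and 108. Genes in the same CpG deciles had 86.1%. Ndufa2, a gene of respiratory complex I, and Ik, which encodes a splicing factor, share a promoter site with scores of 146 and 133. Zmat2 scored 139 and 123. Of the 5 without a site, 3 were predicted genes inside the alpha cluster, such as Gm37013 and Gm37388, and the others were Slc25a2 (named after its values were seen) and Dnd1, a germ cell gene. The 200 kb upstream of Pcdha1 held 17 shared sites and the 200 kb downstream of the gamma genes 38, with median replicate 1 scores of 91 and 90, against 53.5 inside the clusters.

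Protocadherin genes that lie alone on other chromosomes or elsewhere on chromosome 18, which encode related adhesion proteins without a choice among variable exons, were open more often. Of 12, 10 had a shared promoter site, with replicate 1 scores of 68 to 127 and replicate 2 scores of 46 to 106. The strongest were Pcdh17 (127 and 106), Pcdh10 (123 and 100) and Pcdh8 (120 and 99). Pcdh15, which works in hair cells of the inner ear, had no promoter peak, and Pcdh11x had one in replicate 1 only (54). Their share of 83.3% was next to the 83.4% of genes in the same CpG deciles.

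Genes whose products act on the clusters (CTCF, cohesin and its loaders, DNA methylation and repressor genes) had a shared site at the 5′ end in 17 of 21 cases (81%). Genes in the same CpG deciles had 75.6%. The median scores of the 17 were 126 and 109. Wapl, which releases cohesin, scored 140 and 130, Smc3, a cohesin subunit gene, 138 and 130, and Nipbl, the cohesin loader gene, 141 and 125. The 4 without a site at that end, among them Dnmt1, Stag1 and Tet1, had a shared site at another annotated TSS. Of 8 genes for partners of protocadherins inside the cell, 7 had a shared site (87.5%), against 80.1% of genes in the same CpG deciles. The 7 included Wasf1 (138 and 124), Abi1 (137 and 125) and Cyfip1 (138 and 119), all of the actin-regulating WAVE complex. Fyn had a shared site only at another TSS.

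Neurons and glia are few in lung, and 3 of 6 of their marker genes had a shared promoter site, against 79.4% of genes in the same CpG deciles. Syn1 scored 110 and 82, Tubb3 57 and 35, and Elavl4 46 and 37. Snap25 (replicate 2) and Elavl3 (replicate 1) had a peak in 1 replicate only, each with a score of 21, and Sox10, which marks glia, had none. Whether cells of this kind gave the weak protocadherin peaks was not tested.

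Among other families laid out in clusters, Hox genes had a shared site at the 5′ end in 16 of 39 cases, clustered histone genes in 55 of 66 and keratin genes in 9 of 53. At any annotated TSS, 23 Hox and 14 keratin genes had one, against 68.5% of all protein-coding genes. At the 5′ end, genes in the same CpG deciles had 84.4%, 90.9% and 48.4%. By that rule Hox and keratin genes, like the alternate alpha genes, had fewer open promoters than genes of similar CpG number. No CpG-decile share is given here for any annotated TSS. The median scores of the open promoters were 93 and 59.5 for Hox, 133 and 116 for histone and 73 and 60 for keratin genes, and those of the members with a shared site were 42 and 36. These shares were not tested against each other.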

How the data were processed

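Per the notes deposited with the files, peaks and hotspots were called on each library's own alignments to mm10. The caller, aligner, filters and depth are not given in the sources used here. Deposited peaks carry a score of the authors (whole numbers) and deposited hotspots a −log10 q-value (at least 1.30, ceiling 100). Only the 19 autosomes, X and Y entered, and 26 and 23 exact duplicate peaks were removed. No interval ended past a chromosome of GRCm38, the assembly mm10 denotes, whose sequence and GENCODE M21 annotation were used. Members, companion lists and markers were chosen with earlier results of these data known. Named members were the C-type genes, the 15 shared ones with the highest mean score, up to 10 with a peak in 1 replicate, and the first 2 per cluster with none. Named sites were the 10 strongest outside member promoters and those between clusters. Companions were the 3 strongest and up to 3 without a site. Other members and Slc25a2 were named after their values were seen, as were the marker genes and the Hox, histone and keratin families. Some marker genes are not reported here. The alternatives changed the overlap, the score limit, the promoter width, the TSS, the flanks and the hotspot threshold, or used 1 replicate. Promoter calls were tested on simulated data. No p-value was computed, since 1 group has no contrast. No sequence of these loci is printed. Analyses ran in Python 3.11.15 with numpy 2.4.6.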

Additional observations from a re-analysis of the deposited data

How the results depend on the processing

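The 27 members with a shared promoter site stayed between 26 and 27 with an overlap of 75 bp, a peak of each replicate anywhere in the window, promoters of 250 or 1000 bp, any annotated TSS, RefSeq 5′ ends or hotspots. With only peaks at or above the median score of their list (50 and 43), 8 members remained, all of the gamma cluster, against 56.9% of protein-coding genes. Replicate 2 alone gave 28 of 57 members, against 63.8% of all protein-coding genes. Replicate 1 alone gave 41 of 57, against 67.5%, so that by this setting the members were not below the share over all genes. The 27 members with a promoter hotspot in both replicates fell to 10 at a −log10 q of at least 10, and were 28 to 41 with a replicate left out. No share over all genes is given here for that limit. The 111 shared sites of the clusters with 200 kb on each side were 67 with the score limit, 56 without flanks and 127 to 178 with a replicate left out. The 47 open companion genes of 59 ranged from 46 to 52. No paired analysis was possible because the series has 1 group. Unknown depth limits what the absence of a weak peak means.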
